A study of Mus musculus with 8 samples.

Results

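H19, Msl1 and Msl3 are 3 genes at which earlier work had reported binding of PEG3, and they were examined here in lists of peaks from chromatin immunoprecipitation with sequencing (ChIP-seq). The rule that names the genes uses no value of these lists, but the genes were chosen with earlier results of these data known. A peak was assigned to a gene if it overlapped the RefSeq gene body or 10 kb on either side of it. The 3 genes are among 49980 with a position in the RefSeq table. They held 3 of the 152 PEG3 peaks listed in wild-type cells, 1 of the 163 PEG3 peaks listed in knockout cells, and 0 of the H3K9me3 peaks (173 listed in wild type, 93 in knockout).

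The cells were mouse embryonic fibroblasts of the C57BL/6 strain, taken from embryos 14.5 days post coitum, and were either wild type or knockout for Peg3. For each genotype 1 library was made with a PEG3 antibody and 1 with an antibody to trimethylated histone H3 lysine 9 (H3K9me3), and input DNA of the same genotype served as control. The labels state neither the knockout allele nor the number or sex of the embryos behind a library, and peak lists hold no marker expression by which the fibroblast label could be checked. With 1 library per group there is no replicate error, so no test between genotypes was made. The 95% intervals below cover counting error alone. The PEG3 libraries kept 21396407 tags in wild type and 16986250 in knockout, the H3K9me3 libraries 26295696 and 27289192, and the inputs 24305045 and 26470256. In Peg3 itself 13 PEG3 antibody peaks were listed in wild type and 19 in knockout, so no loss of PEG3 antibody signal was seen at Peg3 in the knockout. The wild-type peaks at the 3 genes and the 1 knockout peak among them have to be read with this.

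Peg3 is an imprinted gene, expressed from the paternal allele, that encodes a DNA-binding protein with many zinc fingers. H19 is an imprinted noncoding RNA gene expressed from the maternal allele. A control region upstream of it is methylated on the paternal chromosome and bound on the maternal one by the insulator protein CTCF, which keeps enhancers from reaching the growth factor gene Igf2. Msl1 and Msl3 encode subunits of the MSL complex, which acetylates histone H4 at lysine 16. MSL1 is the scaffold that holds the acetyltransferase KAT8 and the other subunits, and MSL3 is a chromodomain protein that binds methylated histones.

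The promoters of Msl1 and Msl3 are shown because they are the reference sequence closest to the peaks in the tables used here. Each window runs from 250 bases before a RefSeq transcription start through the 50 bases from it on (GRCm38.p6, the RefSeq name of mm10) and is written 5′ to 3′ in the direction of transcription. The Msl1 window lies at chr11:98795266-98795565 on the plus strand, and the Msl3 window at chrX:168673823-168674122 on the minus strand. Capitals mark a match to any of 3 short cores, GGNGGCAG for CTCF, GCCATNTT for the zinc finger protein YY1 and TGGCT, the end of a consensus reported for PEG3, each searched on both strands.

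Msl1 promoter: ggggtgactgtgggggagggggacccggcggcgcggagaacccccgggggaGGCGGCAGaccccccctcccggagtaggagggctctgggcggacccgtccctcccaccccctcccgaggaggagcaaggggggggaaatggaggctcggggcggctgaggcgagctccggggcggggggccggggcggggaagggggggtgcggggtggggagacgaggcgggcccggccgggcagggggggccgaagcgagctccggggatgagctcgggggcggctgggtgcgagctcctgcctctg

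Msl3 promoter: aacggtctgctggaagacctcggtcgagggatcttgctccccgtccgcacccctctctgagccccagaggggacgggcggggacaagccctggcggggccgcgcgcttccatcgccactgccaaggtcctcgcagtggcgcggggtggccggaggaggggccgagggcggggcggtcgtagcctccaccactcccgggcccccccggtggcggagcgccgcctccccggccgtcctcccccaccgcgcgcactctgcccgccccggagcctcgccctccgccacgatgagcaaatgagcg

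The Msl1 window held 1 match to the CTCF core, at bases 52 to 59, and the Msl3 window shown had no match to any of the cores. Among all 32851 promoter windows of the table, 12.6% held the CTCF core, 6.05% the YY1 core and 63.4% the short PEG3 core. Both windows were rich in G and C. The GC content was 79.3% at Msl1 and 75.7% at Msl3, against a median of 52.7%, and only 1.18% and 3.10% of windows had a higher one. The windows held 28 and 36 CpG dinucleotides against a median of 7. Neither window was part of a listed peak, as the wild-type peak began 402 bases beyond the Msl1 window and 316 bases beyond the Msl3 window. A second RefSeq start was listed for each gene, with a GC content of 42.7% in its window at Msl1 and 54.0% at Msl3. The second Msl1 window held no match to the cores. The second Msl3 window held 1 match to the CTCF core, at bases 287 to 294, and 1 to the short PEG3 core on the opposite strand, at bases 266 to 270. For H19 the promoter was not analysed here.

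The first question was where at these genes DNA was enriched with the PEG3 antibody in wild-type cells. All 3 had a peak there, against 0.428% of all genes under the same 10 kb rule (214 of 49980). The lists name few genes, and these 3 were chosen with earlier results of the data known, so the contrast is a description. Fragments over the summit, that is the height of the peak as a count of reads extended to the fragment length, were 27 at H19, 28 at Msl1 and 22 at Msl3. The 3 heights overlapped in their counting intervals.

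H19 (gene 14955, chromosome 7, 142575530 to 142578146) is transcribed on the minus strand, as the hairpin of its microRNA Mir675 within it shows, so its upstream end is at 142578146. The wild-type PEG3 library listed 1 peak in its window, at 142580345 to 142580775, outside the gene. This peak was 431 bp long and covered the stretch from 2199 to 2629 bp upstream of the gene, with the summit 2409 bp upstream. It thus lay on the side of the gene where the control region is found, but the tables used here hold no borders of that region. The 27 fragments over the summit (interval 17.8 to 39.3) came to 1.26 per 1000000 kept tags, and the authors' fold was 7.69. The near end of Igf2 was 70213 bp further upstream of the summit. Of the other RefSeq genes, only Mir675 reached into the 10 kb window.

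Msl1 (gene 74026, chromosome 11, 98793508 to 98807862, plus strand) had its wild-type peak inside the gene, at 98795968 to 98797014. With 1047 bp this peak was the 5th longest of the wild-type list, 10.1 times the fragment length of 104 bp used by the peak caller. It covered the stretch from 452 to 1498 bp downstream of the start whose promoter is shown above, and the summit was 1396 bp downstream of it. The RefSeq gene body begins upstream of that start, at 98793508, so the peak lies further into the gene than these distances. The 28 fragments (interval 18.6 to 40.5) came to 1.31 per 1000000 kept tags, with a fold of 6.41. The summit stood 944 bp from the left border of the peak and 102 bp from the right one, so the height was greatest near the downstream end. The table gives no exons, so whether the peak lies in an exon or an intron was not analysed here. The near end of the noncoding gene Gm12359 was 1397 bp beyond the summit, and that of Casc3, which encodes a component of the exon junction complex, 12896 bp beyond it. On the other side, the noncoding gene Gm31862 was 13184 bp from the summit. The next PEG3 peak of wild type, in Rara, the retinoic acid receptor alpha gene, lay 139211 bp away.

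Msl3 (gene 17692, chromosome X, 168651267 to 168674354, minus strand) had its wild-type peak just outside the upstream end of the gene, at 168674439 to 168674620. This peak was the shortest of the 3, with 182 bp, or 1.75 fragment lengths. It covered the stretch from 567 to 748 bp upstream of the start whose promoter is shown above, and its nearer border was 85 bp from the outermost end of the gene. The 22 fragments (interval 13.8 to 33.3) came to 1.03 per 1000000 kept tags, with a fold of 8.33. No other RefSeq gene reached into the 10 kb window.

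**Figure D1:**
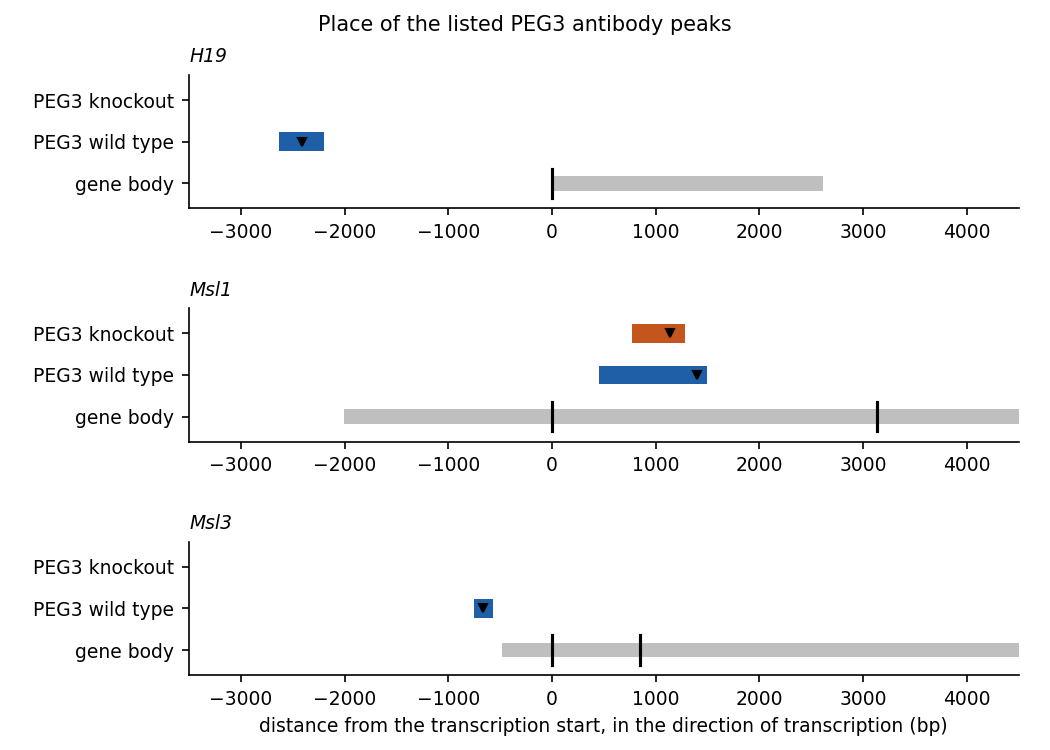
Place of the listed PEG3 antibody peaks at H19, Msl1 and Msl3, on a common scale of distance (bp) from the transcription start in the direction of transcription. Grey bars are gene bodies (cut off at the right), vertical lines RefSeq starts (for H19 the upstream end of the gene), blue and orange bars wild-type and knockout peaks and triangles summits. The H19 peak lies 2199 to 2629 bp upstream, the Msl1 peaks lie downstream within the gene and the Msl3 peak 567 to 748 bp upstream.

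Relative to the starts used, the 3 peaks thus took 3 places, far upstream at H19, downstream at Msl1 and close upstream at Msl3. The Msl1 place depends on the start, as the peak lies between the 2 listed starts and upstream of the second, at 98798654. For H19 the upstream end of the gene served as the start. Across the wild-type PEG3 list, 51 of 148 summits on chromosomes with promoter windows lay within 2 kb of a RefSeq start, or 34.5% (26.8% to 42.7%), 32 of them upstream and 19 downstream. Counted by gene, 0.189% of genes with a promoter window had a wild-type PEG3 summit within 2 kb of a start, Msl1 and Msl3 among them, and 0.0888% a knockout summit, Msl1 among them.

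The fold of each peak rests on few input fragments. The peak caller divides the pileup by the largest of several input estimates, with 1 added to both. At all 4 peaks the recovered input value was a whole number of input fragments to within 0.0001, which the windows of 1000 and 10000 bp would not give, so it was the input count over the summit itself. This count was 3 at H19 (interval 0.619 to 8.77), 4 at Msl1 in wild type (1.09 to 10.2), 4 at Msl1 in knockout and 2 at Msl3 (0.242 to 7.22). Without the added 1, and with both counts divided by kept tags, the enrichment over input was 10.2 (3.15 to 52.7) at H19, 7.95 (2.78 to 31.2) at Msl1 and 12.5 (3.07 to 110) at Msl3. The lower bounds all lie above 1, but the intervals overlap so widely that these data give no order of enrichment among the 3 genes. The caller chose these summits because they were high over this same input, which raises such values. The lower bounds are therefore no separate evidence of enrichment.

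Among the 152 wild-type PEG3 peaks the 3 genes stood in the middle to upper part by height and fold. By fold, Msl3 was 30th, H19 36th and Msl1 56th, against a median of 5.80. By fragments the order was reversed, with Msl1 57th, H19 62nd and Msl3 77th, ties counted from the top, against a median of 22.5. The reversal goes with the input, as Msl1 had the most input fragments and Msl3 the fewest. The peaks next above and below H19 by fold lay on chromosome 7 at 6717131 (7.97-fold) and on chromosome 1 at 40275958 (7.63-fold). Next to Msl3 stood X 106186821 (8.75-fold) and chromosome 18 at 45056086 (8.22-fold), and next to Msl1 chromosome 17 at 83706490 (6.52-fold) and chromosome 3 at 152543481 (6.39-fold).

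**Figure D2:**
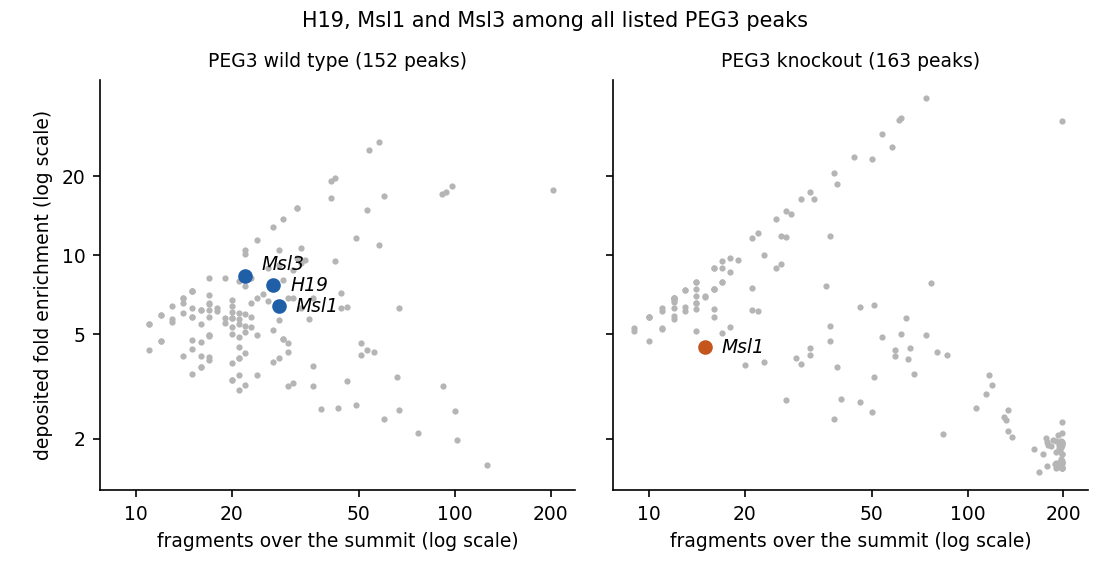
Authors' fold enrichment against fragments over the summit, both on log scales, for every listed PEG3 peak in wild type (left, 152 peaks) and knockout (right, 163 peaks), with the peaks of H19, Msl1 and Msl3 coloured. The 3 wild-type peaks lie close together, between 22 and 28 fragments and 6.41-fold and 8.33-fold, and the Msl1 knockout peak lies lower, at 15 fragments and 4.49-fold.

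The second comparison set wild type against knockout. Msl1 was the only 1 of the 3 with a PEG3 peak in knockout, against 0.252% of all genes (126 of 49980). Its knockout peak, at 98796290 to 98796796, lay wholly within the wild-type one. It was 507 bp long, 48.4% of the wild-type length, and fell short of it by 322 bp on the left and 218 bp on the right. The knockout summit was 255 bp closer to the start, 1141 bp downstream of it. It had 15 fragments (8.40 to 24.7), or 0.883 per 1000000 kept tags, against 28 fragments and 1.31 per 1000000 kept tags in wild type. The knockout fold was 4.49, 87th of the 163 knockout peaks, and by fragments the peak was 130th. The peaks next above and below it by fold lay on chromosome 13 at 42051166 (4.71-fold) and on the Y chromosome at 90819797 (4.45-fold).

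Each Msl1 height was taken at the summit of its own library, and the wild-type summit lies outside the knockout peak. The Msl1 height per kept tag in knockout was 0.675 of that in wild type, with an interval of 0.335 to 1.31 that holds 1. The ratio of the authors' folds was 0.699. Both genotypes had 4 input fragments at their own summits. The ratio of input per kept tag was 0.918 (0.171 to 4.93), an interval too wide to show that the input was alike. The ratio of the 2 enrichments over input was 0.735, with an interval of 0.120 to 4.60. A difference between the 2 summit heights at Msl1 was therefore not detectable at this depth, and the intervals also do not show that they were equal. These ratios do not compare the genotypes at 1 and the same position. With a −log10 q-value of 2.96, the knockout peak was nearer to the limit of listing than the wild-type peak, with 11.2.

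H19 and Msl3 had no listed knockout PEG3 peak, and the nearest ones were 2760477 bp and 62487568 bp from their wild-type summits. A site outside a list has no deposited height, so the most that could have been present was worked out from the listing rule. At equal height per kept tag the knockout library would hold 21.4 fragments at the H19 summit and 17.5 at the Msl3 summit. With the wild-type input rate carried over, 13 fragments at H19 and 10 at Msl3 would reach the lowest −log10 p-value listed in knockout (6.48). So at most 12 and 9 fragments could go unlisted on height, and 8 at either gene if only the genome-wide background applied. Even the highest unlisted count gives a ratio to wild type of 0.560 (0.258 to 1.14) at H19 and 0.515 (0.209 to 1.16) at Msl3, and both intervals hold 1. At the genome-wide background, equal to 1.40 knockout input fragments, the ratio is 0.373 (0.147 to 0.845) at H19 and 0.458 (0.176 to 1.07) at Msl3. The knockout counts in all these ratios are assumed bounds and were not observed. The wild-type summits they are set against were chosen by the caller because they were high. The intervals therefore do not measure a difference between the genotypes. A knockout summit as high as the wild-type one, taken as 21 and 17 fragments, would have missed the list at H19 with 10 or more knockout input fragments there, and at Msl3 with 7 or more, where wild type had 3 and 2. The knockout input at these sites was not analysed here. The wild-type summit of Msl1, which lies outside the knockout peak, has a bound of the same kind. With the wild-type input rate carried over, at most 13 knockout fragments could go unlisted there, a ratio of 0.585 (0.278 to 1.17). At the genome-wide background it was 8 fragments, a ratio of 0.360 (0.142 to 0.810). Here too an assumed count is set against a summit chosen for its height in wild type. These values are therefore no measure of a difference at Msl1.

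**Figure D3:**
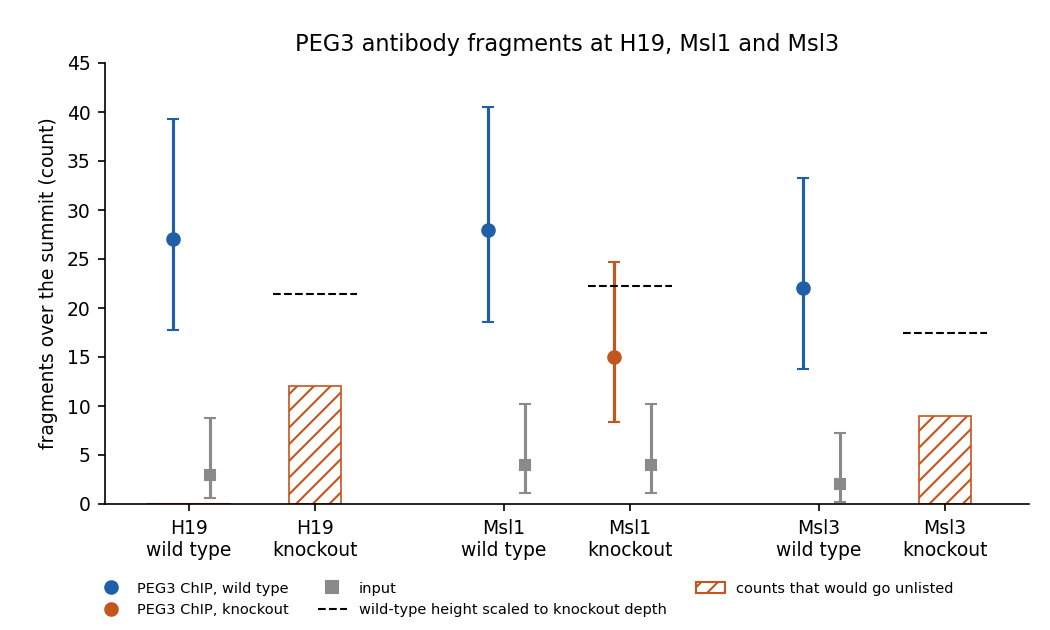
Fragments over the summit at H19, Msl1 and Msl3 with the PEG3 antibody (circles) and in input (grey squares), as raw counts with exact 95% Poisson intervals. Dashed lines give the wild-type height scaled to the knockout depth, and hatched bars the counts up to 12 at H19 and 9 at Msl3 that would go unlisted in knockout. The dashed lines at H19 and Msl3 lie above the bars. The Msl1 knockout count of 15, taken at the knockout summit, lies below its line, which is within its interval.

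The peaks of the 3 genes were also set beside wild-type peaks of like fold or length. Of the 27 wild-type peaks with a fold from 6.41 to 8.33, the 3 included, 10 were listed in knockout, or 37.0% (19.4% to 57.6%), against 62 of all 152, or 40.8% (32.9% to 49.0%). Without the peaks in Peg3 itself, it was 7 of 24 in that fold range, or 29.2% (12.6% to 51.1%). Of the 21 wild-type peaks at least as long as that of H19, 17 were also listed in knockout, or 81.0% (58.1% to 94.6%), and H19 was among the other 4. Of the 5 at least as long as that of Msl1, 4 were listed in knockout, Msl1 among them. Of the 73 at least as long as that of Msl3, 36 were. The sets of 21, 5 and 73 peaks held 2, 1 and 4 peaks in Peg3. These cuts were made at the lengths of the 3 peaks after their values were known, and whether H19 differs from other long peaks was not tested.

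**Figure D4:**
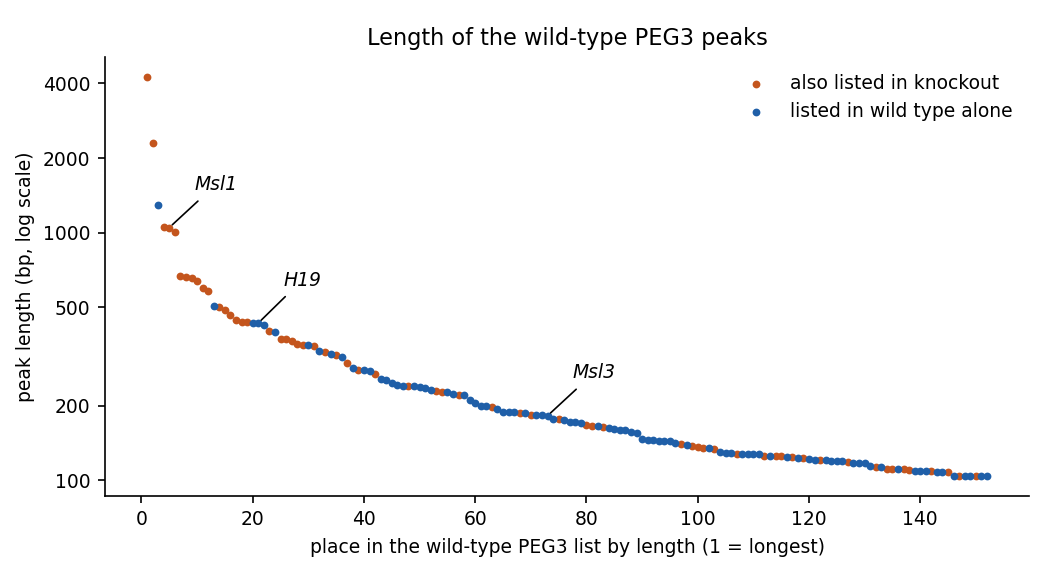
Length of each wild-type PEG3 peak (bp, log scale) against its place in the list by length, with peaks also listed in knockout in orange and those listed in wild type alone in blue. Msl1 is 5th at 1047 bp and H19 is 21st at 431 bp, while Msl3 is 73rd at 182 bp, and orange points prevail among the longest peaks.

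Msl3 lies on the X chromosome, and the sex of the embryos is not stated in the labels. The wild-type list held 4 PEG3 peaks on X and the knockout list 2, with 10 and 0 in the H3K9me3 lists. On the Y chromosome the PEG3 lists held 1 peak in wild type and 2 in knockout, and the H3K9me3 lists 7 and 5. The X-linked site listed in both genotypes, 279 bp from Pgk1, a glycolysis gene, had 31 fragments in wild type and 28 in knockout, a ratio per kept tag of 1.14 (0.658 to 1.96). Whether a difference in the number of X chromosomes bears on Msl3 was not tested.

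H3K9me3 peaks were absent from the windows of all 3 genes in both genotypes, where 0.222% of all genes had one in wild type and 0.138% in knockout. With shares this low, 0 of 3 genes says little about them. The nearest H3K9me3 peak was 130.6 Mb from the H19 summit in wild type and 82.8 Mb in knockout. It was 9.72 Mb from the Msl1 summit in wild type and 9.71 Mb in knockout, and 1.32 Mb from the Msl3 summit in wild type, with no peak on X in knockout. The H3K9me3 lists were called as narrow peaks with a median length of 161 and 160 bp, so a broad, low domain of the mark over these genes would not be seen in them.

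Other genes of the same pathways were counted under the same 10 kb rule, by which 0.428% of all genes had a wild-type and 0.252% a knockout PEG3 peak. At such shares a list of this size would seldom hold a gene with a peak, so the counts of 0 say nothing particular about these pathways. Of the 4 genes of the MSL complex, Msl1 and Msl3 had a wild-type PEG3 peak and Msl2, the ubiquitin ligase subunit, and Kat8, the acetyltransferase, had none. Of the 9 genes of the NSL complex, which also contains KAT8, 0 had a PEG3 peak in either genotype. In a list of 18 genes from the wider imprinted region that holds H19 and Igf2, H19 was the only 1 with a wild-type peak. In knockout 0 of the 18 had a peak. Mir675, inside H19 and 3408 bp from the summit, shares the H19 peak under the 10 kb rule but was not counted there. Igf2, Kcnq1ot1 and Cdkn1c, a cell cycle inhibitor gene, were among those without. Of 43 matched imprinted genes elsewhere, 2 had a PEG3 peak in each genotype. They were Peg3 and its neighbour Usp29, which encodes a ubiquitin-specific protease and shares a promoter region with Peg3. With H3K9me3, 1 of these 43 had a peak in wild type, Peg3, and 0 in knockout. These lists were written with earlier results of the data known.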

How the data were processed

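The deposited peak tables of 4 ChIP libraries were used. The submitters' processing notes name Bowtie2, SAMtools and the build mm10. Per the file headers, the authors called peaks in each library against its input with MACS2 2.2.6 (q threshold 0.05, 1 tag kept per position, the larger library scaled to the smaller). The deposited values are the pileup signal at the summit, the fold (a ratio of pileup to local input, 1 added to both), and −log10 p-values and q-values, whose column names were lost and which were identified from their values. Fragments were recovered as pileup divided by the ChIP scale, which was 1 for both PEG3 libraries. Input fragments were recovered from the fold. The −log10 p-values recomputed from these differed by at most 0.00335.

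Fragment counts have exact Poisson intervals, ratios exact conditional ones and shares exact Clopper-Pearson ones, all at 95%. A peak counted as listed in both genotypes at an overlap of 1 bp or more. Gene and promoter positions came from RefSeq GRCm38.p6 tables, and 2 of the 3 genes matched a promoter window. All 3 genes, every peak in their windows, the peak next above and next below each by fold, neighbouring genes and genes of 4 fixed lists with a peak within 10 kb were named. Genes, lists and tests were chosen with earlier results of these data known. The 2 kb distance to a start, the cuts by fold and length and the peak near Pgk1 were chosen after seeing the values. Window and overlap functions were tested on simulated data, in which 60 of 60 planted genes and 50 of 50 overlaps were found, and 480 of 500 intervals covered the true ratio. Computation used SciPy 1.17.1 and pandas 2.3.3 under Python 3.11.15, and figures matplotlib 3.10.9.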

Additional observations from a re-analysis of the deposited data

How the results depend on the processing

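All 3 genes kept a wild-type PEG3 peak with windows of 5, 20 and 50 kb, a −log10 q-value of at least 2 or 3 and a fold of at least 5, and 2 kept one with a window of 1 kb, as the H19 peak lies further out. The number with a knockout PEG3 peak stayed 1 at every window but was 0 at a −log10 q-value of at least 3 and 0 at a fold of at least 5. The number listed in both genotypes was 1 with a gap of up to 1000 bp and 0 with a reciprocal overlap of 50%, since the knockout peak covers 48.4% of the Msl1 wild-type peak. The Msl1 ratio ranged from 0.536 (deposited pileups, not corrected for depth) to 0.709 (corrected for fragment length as well). The share of genes with a peak, among protein-coding genes, was 0.644% for wild-type and 0.347% for knockout PEG3. With a window of 1 kb it was 0.244% and 0.152% for PEG3 and 0.110% and 0.0580% for H3K9me3. The heights at these genes are counts of 15 to 28 fragments over 2 to 4 input fragments, which sets the width of their intervals. With 1 library per group, neither leaving out a replicate nor a paired analysis could be done.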
